A study of Mus musculus with 8 samples.

Results

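The platelet-derived growth factor (PDGF) family comprised 6 of the 50462 gene identifiers in the count table, the ligand genes Pdgfa, Pdgfb, Pdgfc and Pdgfd and the receptor genes Pdgfra and Pdgfrb. They were chosen by family membership from the gene symbols, and each was detected in all libraries and received an adjusted p. RNA-seq was performed on cartilage caps from the medial knee of male C57BL/6J mice, with 4 wild-type mice in each of 2 groups and a separate library for each mouse. Naive mice had no surgery and were taken at day 0, at 11 weeks of age. DMM mice were wild type too, and in them the medial meniscus was destabilised at 11 weeks by cutting the ligament that ties it to the tibia, which is a model of post-traumatic osteoarthritis. They were taken at day 42, at 17 weeks of age. No sham-operated mice were among these groups, so the effects of destabilisation, of the operation itself and of age cannot be told apart.

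PDGF ligands are disulphide-linked dimers that signal through receptor tyrosine kinases on neighbouring cells. PDGF-A and PDGF-B are cut by furin-like proteases before they leave the cell, whereas PDGF-C and PDGF-D are secreted with a CUB domain that must be removed outside the cell. The alpha receptor (Pdgfra) binds the A, B and C chains, and the beta receptor (Pdgfrb) binds mainly the B and D chains. In connective tissue the receptors are carried by fibroblasts, mesenchymal progenitors and the mural cells of small vessels, and PDGF-B from endothelial cells is best known for recruiting mural cells.

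Total estimated counts lay between 12479443 and 16548002 per library. The lowest estimated count of any family member in a library was 100.0, where counting alone gives an SD of 10.0%, and the highest was 3026, where it gives 1.82%. The labels call the cells chondrocytes, and the chondrocyte markers Col2a1 and Acan were abundant. Matn1, on the same marker list, had a mean of 3.07 normalised counts, which was not read as evidence about the label. Markers of blood, bone, vessel and fibroblast lineages were present in all libraries as well. The groups differed broadly, because DESeq2 called 2422 of 17350 tested genes (14.0%), a call meaning a DESeq2 adjusted p no higher than 0.05 together with at least a 1.5-fold change. Of these, 1369 were higher and 1053 lower in DMM.

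Between naive and DMM cartilage, 3 of the 6 PDGF genes rose by this rule, the ligand gene Pdgfc and both receptor genes, and none fell. Across all tested genes, 7.89% were called higher. Fold changes were 1.58 for Pdgfc, 1.54 for Pdgfra and 1.61 for Pdgfrb, each with n = 4 per group. Pdgfa passed the adjusted p but not the 1.5-fold limit, and Pdgfb and Pdgfd passed neither. All 6 estimates were above 0, with a median log2 fold change of 0.44 for the 4 ligands and 0.65 for the 2 receptors, beside -0.017 over all tested genes. By adjusted p alone the family had 4 higher members, where 11.6% of tested genes were higher. Naive and DMM libraries did not overlap for the same 4 genes, and they did not overlap, with DMM higher, for 12.1% of tested genes. Pdgfc, Pdgfra and Pdgfrb were also the 3 members called by edgeR's quasi-likelihood test and by limma-voom, which called 6.89% and 7.15% of their tested genes higher. Scaling by total count added Pdgfa in a setting where 11.2% of genes were called higher. Because the samples are whole tissue, more cells of a type and more RNA per cell cannot be told apart in these values.

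**Figure D1:**
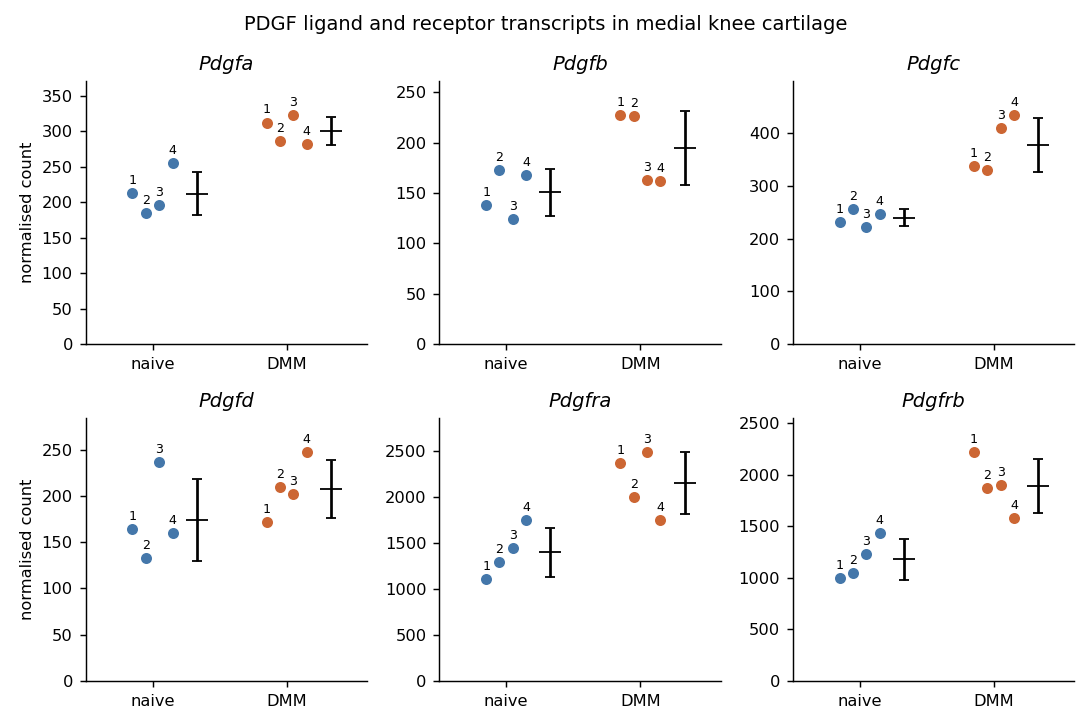
Normalised counts of the 6 PDGF genes in each library. Points are libraries numbered by replicate, naive in blue and DMM in orange, and bars give the mean and SD (n = 4 per group). The DMM points of Pdgfa, Pdgfc, Pdgfra and Pdgfrb all lie above the naive points, and those of Pdgfb and Pdgfd overlap with them.

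The receptors were the most abundant members. The mean level of Pdgfra stood at the 93.7 percentile of tested genes and that of Pdgfrb at 92.1, whereas the ligands lay between 47.7 (Pdgfb) and 60.8 (Pdgfc). Percentiles and normalised counts depend on transcript length, so levels were also taken per kilobase of the longest annotated transcript. On this scale naive cartilage held 217 ± 36.9 normalised counts per kb of Pdgfrb and 205 ± 39.4 of Pdgfra (SD, n = 4). Ligand levels in naive cartilage were 103 ± 14.9 per kb for Pdgfa, 68.0 ± 4.44 for Pdgfc, 55.4 ± 14.1 for Pdgfd and 51.2 ± 7.97 for Pdgfb. In DMM cartilage the means per kb were 349 ± 48.1 for Pdgfrb, 315 ± 49.6 for Pdgfra, 146 ± 9.61 for Pdgfa, 107 ± 14.6 for Pdgfc, 66.3 ± 9.94 for Pdgfd and 66.2 ± 12.6 for Pdgfb. With this length the order of the 6 levels was the same in both groups. The neighbouring levels of Pdgfrb and Pdgfra overlapped between libraries, as did those of Pdgfd and Pdgfb and, in naive cartilage, those of Pdgfc and Pdgfd, so these pairs are not ordered beyond their spread. The order also depends on the length used. With the median length of the protein coding transcripts, a choice made after seeing the data, Pdgfra was first at 487 per kb in naive cartilage, and Pdgfb, whose median transcript is 652 bases, was second at 231. With that length Pdgfb moved from rank 2 in naive to rank 3 in DMM cartilage and Pdgfrb from rank 3 to 2. With the length of all exons merged, Pdgfc moved from rank 5 to 4 and Pdgfd from rank 4 to 5, so both other lengths gave an order that differed between the groups.

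Pdgfra (ENSMUSG00000029231, chromosome 5, 75152292 to 75198215, plus strand, GRCm38) encodes the alpha receptor. Its normalised counts in naive replicates 1 to 4 were 1112, 1294, 1446 and 1748, and those in DMM replicates 1 to 4 were 2368, 1998, 2491 and 1753. The highest naive library and the lowest DMM library were nearly level, and the groups only just failed to overlap. The mean rose from 1400 ± 269.1 to 2152 ± 338.9 (SD, n = 4 per group), which is a log2 fold change of 0.62 (SE 0.16, 95% interval 0.30 to 0.94, DESeq2 adjusted p = 0.00179). This value stood close to the 1.5-fold limit, which is 0.585 on the log2 scale. The estimate fell below it without naive replicate 1 (0.53), without DMM replicate 1 (0.57) and without DMM replicate 3 (0.54), while the adjusted p passed in all 8 fits that left out a library.

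Pdgfrb (ENSMUSG00000024620, chromosome 18, 61045150 to 61085061, plus strand) encodes the beta receptor. Naive replicates 1 to 4 held 1001, 1042, 1232 and 1438 normalised counts, and DMM replicates 1 to 4 held 2218, 1866, 1897 and 1580. Every DMM library was above every naive library, and DMM replicate 1 was the highest. The mean rose from 1178 ± 200.3 to 1890 ± 261 (SD, n = 4 per group), which is a log2 fold change of 0.68 (SE 0.15, 95% interval 0.39 to 0.98, DESeq2 adjusted p = 0.00013). The call held in all 8 fits that left out a library, with estimates from 0.60 to 0.79.

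The balance of the receptors was compared within libraries, and no shift was shown. The log2 ratio of Pdgfra to Pdgfrb estimated counts was 0.24 ± 0.07 in naive and 0.18 ± 0.14 in DMM cartilage (SD, n = 4 per group), a difference of -0.06 with a 95% interval from -0.25 to 0.13 (exact permutation test, two-sided p = 0.429, 0.486 after adjustment over 3 ratios). A ratio of this kind does not depend on how libraries are scaled. The interval leaves room for a modest shift in either direction, and the smallest p that 4 against 4 libraries can reach is 0.0286.

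Pdgfc (ENSMUSG00000028019, chromosome 3, 81036416 to 81214040, plus strand) encodes PDGF-C, a ligand of the alpha receptor that needs cleavage outside the cell. In naive replicates 1 to 4 it had 232.2, 256.8, 221.5 and 247.2 normalised counts, and in DMM replicates 1 to 4 it had 337.5, 330.0, 409.1 and 433.2. The naive libraries lay close together and all DMM libraries lay above them. The mean rose from 239.4 ± 15.63 to 377.5 ± 51.5 (SD, n = 4 per group), which is a log2 fold change of 0.66 (SE 0.14, 95% interval 0.38 to 0.94, DESeq2 adjusted p = 7.97e-05). Pdgfc was called in all 8 fits that left out a library, with estimates between 0.59 and 0.72.

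Pdgfa (ENSMUSG00000025856, chromosome 5, 138976014 to 138997370, minus strand) encodes PDGF-A, which signals through the alpha receptor. Counts were 212.8, 184.9, 196.9 and 255.1 in naive replicates 1 to 4 and 312.6, 285.9, 322.7 and 282.5 in DMM replicates 1 to 4, after normalisation. The groups did not overlap. The means were 212.4 ± 30.66 and 300.9 ± 19.8 (SD, n = 4 per group), which is a log2 fold change of 0.50 (SE 0.14, 95% interval 0.22 to 0.78, DESeq2 adjusted p = 0.00413), which corresponds to 1.42-fold and so misses the fold limit. Without naive replicate 4 the estimate was 0.60 and the gene was called. An antisense gene, 6330403L08Rik, overlaps Pdgfa, and 23.28% of the 31-base words in Pdgfa transcripts also occur in transcripts of 3 other genes, this antisense gene among them. The antisense gene had 83.9 to 108 normalised counts in naive and 162 to 210 in DMM libraries and was called (log2 fold change 0.94, DESeq2 adjusted p = 1.82e-06). Strand was not stated for the counting, so reads of the overlapping parts of both genes cannot be told apart. The Pdgfa value is therefore less certain than the others. Smaller shares of the words of Pdgfra (5.57%, in 2764 other genes) and Pdgfc (2.54%, in 1060 other genes) were shared too. Their values carry this limit to a lesser degree, and Pdgfb, Pdgfd and Pdgfrb shared no words.

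Pdgfb (ENSMUSG00000000489, chromosome 15, 79995874 to 80014977, minus strand) encodes PDGF-B, which binds both receptors. It had 138.1, 172.9, 124.2 and 167.8 normalised counts in naive and 227.2, 226.8, 163.0 and 162.5 in DMM replicates 1 to 4. DMM replicates 1 and 2 were above all naive libraries, and DMM replicates 3 and 4 lay within the naive range. With means of 150.7 ± 23.47 and 194.9 ± 37.13 (SD, n = 4 per group), the log2 fold change was 0.37 (SE 0.19, 95% interval -0.0014 to 0.75, DESeq2 adjusted p = 0.151). A change was not shown at this depth and replicate number, and the interval includes both no change and changes beyond 1.5-fold.

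Pdgfd (ENSMUSG00000032006, chromosome 9, 6168584 to 6378850, plus strand) encodes PDGF-D, the other CUB domain ligand, which acts mainly through the beta receptor. The normalised counts were 164.4, 133.0, 236.5 and 159.9 in naive and 171.7, 209.6, 201.7 and 247.3 in DMM replicates 1 to 4. Naive replicate 3 was above all but a single DMM library, and the groups overlapped. Means of 173.5 ± 44.26 and 207.6 ± 31.12 (SD, n = 4 per group) gave a log2 fold change of 0.26 (SE 0.20, 95% interval -0.14 to 0.65, DESeq2 adjusted p = 0.404). Ddi1, a protein coding gene on the opposite strand that overlaps Pdgfd, had 37.3 to 60.1 normalised counts in naive and 54.8 to 66.8 in DMM libraries.

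**Figure D2:**
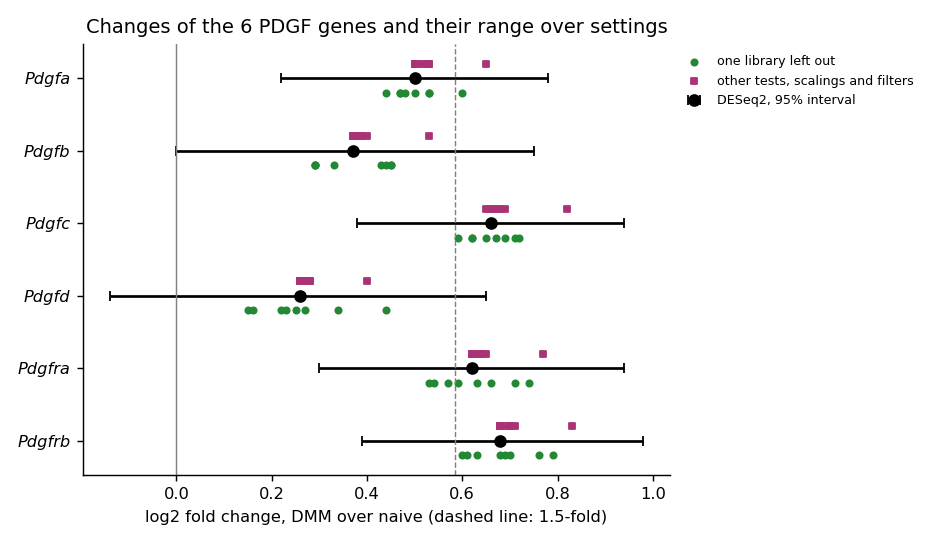
Log2 fold changes of the 6 PDGF genes, DMM over naive. Black points and bars are DESeq2 estimates with 95% intervals, and green points leave out 1 library each. Purple squares are other tests, scalings, filters and fold limits, and the dashed line is 1.5-fold. Some squares repeat the DESeq2 estimate, because their settings change only the p or the threshold. The intervals of Pdgfb and Pdgfd include 0, and the estimates of Pdgfra without 1 library lie on both sides of the dashed line.

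The ligand genes were also compared with each other within libraries, since Pdgfc passed and Pdgfd did not. The log2 ratio of Pdgfc to Pdgfd was 0.50 ± 0.44 in naive and 0.87 ± 0.17 in DMM cartilage (SD, n = 4 per group). The difference of 0.37 had a 95% interval from -0.20 to 0.94 (exact permutation test, two-sided p = 0.114, 0.343 after adjustment over 3 ratios). Naive replicate 3, at -0.09, was the only library in which Pdgfd exceeded Pdgfc, and without it the difference was 0.17. The change of Pdgfc was therefore not shown to differ from that of Pdgfd. For Pdgfa to Pdgfb the log2 ratio was 0.50 ± 0.27 in naive and 0.65 ± 0.30 in DMM cartilage (SD, n = 4 per group). This difference of 0.15 had an interval from -0.34 to 0.64 (exact permutation test, two-sided p = 0.486, also 0.486 after adjustment). No shift in the make-up of the ligand transcripts was shown. Per kb of transcript, Pdgfa made up 37.0% ± 3.3 of the 4 ligands in naive and 37.9% ± 2.53 in DMM cartilage, and Pdgfc 24.5% ± 2.19 and 27.7% ± 3.15. The shares of Pdgfb were 18.5% ± 2.93 and 17.2% ± 3.67, and those of Pdgfd 20.0% ± 5.13 and 17.2% ± 2.35 (SD, n = 4 per group). For every ligand the shares overlapped between groups.

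**Figure D3:**
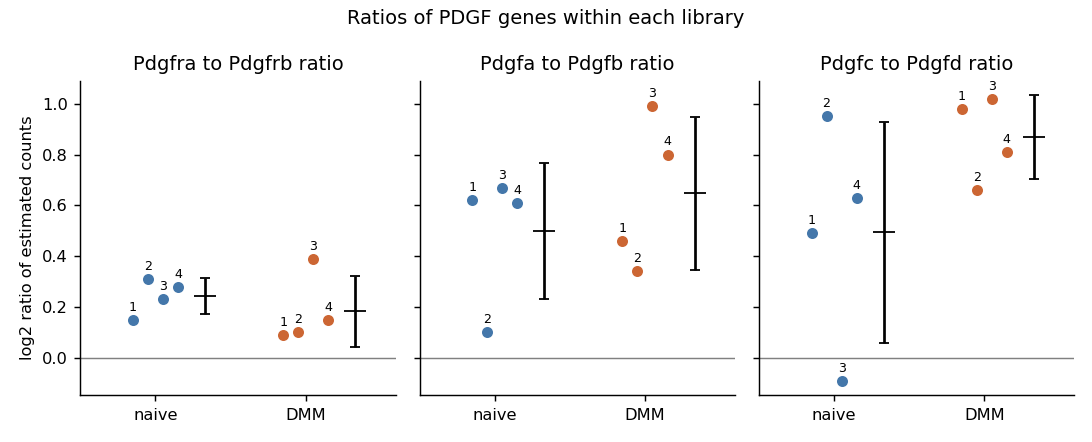
Log2 ratios of estimated counts of 2 PDGF genes within each library, with no correction for length. Points are libraries numbered by replicate, and bars give the mean and SD (n = 4 per group). For each of the 3 ratios the naive and DMM points overlap.

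The promoters of Pdgfc and Pdgfra, which were called, are shown with that of Pdgfd, the other CUB domain ligand, whose change was not shown to differ from that of Pdgfc. The RefSeq promoter table (GRCm38.p6) matched 4 of the 6 members, Pdgfa, Pdgfc, Pdgfd and Pdgfra. The 250 bases before the RefSeq start are given 5′ to 3′ on the strand of the gene, for Pdgfc at chr3:81036166-81036415, for Pdgfra at chr5:75152001-75152250 and for Pdgfd at chr9:6168236-6168485, all on the plus strand. Capitals mark a TATA box (TATAAA).
Pdgfc: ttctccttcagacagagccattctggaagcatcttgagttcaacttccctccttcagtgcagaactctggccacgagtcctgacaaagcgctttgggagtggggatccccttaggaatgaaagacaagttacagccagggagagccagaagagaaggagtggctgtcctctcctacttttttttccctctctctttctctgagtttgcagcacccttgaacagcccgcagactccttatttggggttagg
Pdgfra: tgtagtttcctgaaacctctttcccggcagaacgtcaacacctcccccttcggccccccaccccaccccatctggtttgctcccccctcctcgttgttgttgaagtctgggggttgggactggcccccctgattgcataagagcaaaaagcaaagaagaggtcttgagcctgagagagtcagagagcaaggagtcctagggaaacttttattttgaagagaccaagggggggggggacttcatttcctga
Pdgfd: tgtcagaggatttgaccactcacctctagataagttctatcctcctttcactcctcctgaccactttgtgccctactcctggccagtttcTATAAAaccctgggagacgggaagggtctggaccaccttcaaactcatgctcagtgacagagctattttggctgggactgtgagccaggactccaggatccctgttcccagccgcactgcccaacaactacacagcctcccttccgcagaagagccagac
These windows hold 50.8% (Pdgfc), 54.4% (Pdgfra) and 53.6% (Pdgfd) G and C, close to the median of 52.4% over all 32851 promoter windows. The GC box (GGGCGG, searched on both strands like the other motifs) was in none of the 3, whereas 32.7% of all windows hold it. Only the Pdgfd window holds TATAAA, which starts 160 bases before the start site and is found in 12.4% of all windows. Pdgfa differed in base composition. Its windows before 2 RefSeq starts hold 66.4% and 72.4% G and C, with 1 GC box in the former and 2 in the latter. Both windows (138994282 to 138994531 and 138994945 to 138995194) lie inside the GENCODE gene (138976014 to 138997370), so they are not upstream of its annotated start. The letters TGANTCA (AP-1, in 6.7% of all windows) and GCGNGGGCG (EGR1, in 4.7%) were in no window of these 4 genes. A match, or its absence, describes only the letters of these windows.

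Genes that process, bind or carry the PDGF signal were described from 4 lists of 61 genes, of which 9 rose and 1 fell, beside 7.89% and 6.07% of all tested genes. Their median log2 fold change was 0.067. A further 11 genes passed the adjusted p under 1.5-fold, 6 of them higher and 5 lower. By adjusted p alone, 15 of the 61 genes were higher and 6 lower, beside 2015 and 2001 of all 17350 tested genes.

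Among the 9 genes for ligand processing and retention, 2 rose, beside 7.89% of all tested genes. Pcsk5, a furin-like protease that can cut PDGF chains, rose from 334.9 to 794.4 normalised counts, with 269.1 to 405.6 in naive and 758.8 to 836.6 in DMM libraries (log2 fold change 1.25, DESeq2 adjusted p = 1.34e-14). Sparc, a matrix protein that binds PDGF-B and keeps it from its receptor, had 30100 to 40960 normalised counts in naive and 57190 to 79590 in DMM libraries (log2 fold change 0.92, DESeq2 adjusted p = 6.74e-08). Thbs1, a matrix glycoprotein, had 6278 to 7614 in naive and 4102 to 5518 in DMM libraries (log2 fold change -0.56, DESeq2 adjusted p = 8.83e-05), just under the fold limit, and was called without DMM replicate 3 (-0.65), naive replicate 3 (-0.60) or naive replicate 4 (-0.59). The proteases on this list known to activate the CUB domain ligands, Plat, Plau and St14, did not pass. Their log2 fold changes were 0.55 for Plat, which cuts PDGF-C (DESeq2 adjusted p = 0.214), -0.05 for Plau (0.843) and -0.07 for St14 (0.792), both of which cut PDGF-D. For Furin itself the log2 fold change was 0.32 (DESeq2 adjusted p = 0.0297), under the fold limit.

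All 4 co-receptors and receptor-like genes passed the adjusted p with higher levels in DMM, and 2 rose by the full rule. Over all tested genes, 11.6% were higher by adjusted p alone and 7.89% by the full rule. Lrp1, an endocytic receptor that associates with the beta receptor, had 11180 to 18340 normalised counts in naive and 17100 to 25500 in DMM libraries (log2 fold change 0.67, DESeq2 adjusted p = 0.00134). Its groups overlapped, and its estimate was 0.57, below the fold limit, without naive replicate 1. Pdgfrl, named for its resemblance to the PDGF receptors but without a kinase domain, rose from 124.6 to 247.7 (log2 fold change 1.0, DESeq2 adjusted p = 6e-05). Nrp1 and Nrp2, the neuropilins, had log2 fold changes of 0.40 and 0.45.

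Of the 35 adaptors and effectors, 4 rose and none fell, beside 7.89% and 6.07% of all tested genes. Grb10, an adaptor that binds activated receptors, rose from 481.9 to 659.9 in naive to between 981.5 and 1306 in DMM libraries (log2 fold change 1.04, DESeq2 adjusted p = 3.5e-11). Plcg1, the phospholipase recruited by both PDGF receptors, rose by 0.65, the docking protein Gab1 by 0.61 and the Src family kinase Yes1 by 0.61 on the log2 scale. Each of these 3 calls was lost without some libraries, Plcg1 without DMM replicate 1 (0.58), Gab1 without DMM replicate 3 (0.56), DMM replicate 4 (0.56) or naive replicate 1 (0.55), and Yes1 without DMM replicate 4 (0.53) or naive replicate 2 (0.52). The most abundant members of this list did not pass, Pik3r1, the regulatory subunit of phosphoinositide 3-kinase, with 0.07 (DESeq2 adjusted p = 0.726) and Ptpn11, the phosphatase SHP2, with -0.27 (0.0632).

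Of the 13 attenuators, 1 rose and 1 fell, where 7.89% of all tested genes rose and 6.07% fell. Spry4, an inhibitor of receptor tyrosine kinase signalling, rose from 75.63 to 103.2 in naive to between 116.9 and 194.0 in DMM libraries (log2 fold change 0.79, DESeq2 adjusted p = 0.00153). Acp1, a low molecular weight phosphatase known to act on PDGF receptors, fell from 597.5 to 780.0 in naive to between 361.2 and 568.0 in DMM libraries (log2 fold change -0.61, DESeq2 adjusted p = 0.00328). The Acp1 call was lost without DMM replicate 1 (-0.54) or 2 (-0.53), without naive replicate 1 (-0.54) or 2 (-0.58), and with scaling by total count (-0.46). Cbl, a ubiquitin ligase that marks activated receptors for breakdown, had a log2 fold change of -0.30 and was not called.

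**Figure D4:**
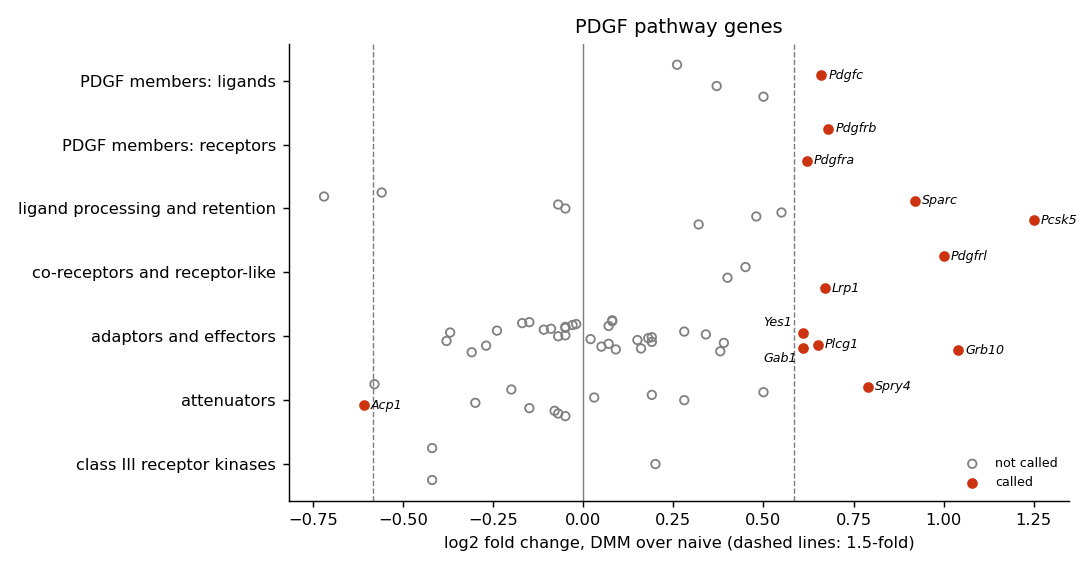
Log2 fold changes (DMM over naive, DESeq2) of the PDGF genes and of genes around them, grouped by role. Filled red points are called, open points are not, and dashed lines mark 1.5-fold. Called genes lie to the right in every group of pathway genes, Acp1 is the only called gene to the left, and no other class III receptor kinase was called.

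The other members of the class III receptor tyrosine kinases, the structural family of the PDGF receptors, were set beside them. Kit, the stem cell factor receptor, lies 376.7 kb from Pdgfra on chromosome 5 (75574916 to 75656722). It had 614.5 to 659.9 normalised counts in naive and 406.4 to 586.9 in DMM libraries (log2 fold change -0.42, DESeq2 adjusted p = 0.0104), lower in DMM but under the fold limit, while Pdgfra rose. Flt3, a receptor of haematopoietic progenitors, had the same log2 fold change, -0.42 (DESeq2 adjusted p = 0.0414). With scaling by total count neither passed (Kit -0.26 with adjusted p = 0.158 and Flt3 -0.27 with adjusted p = 0.239, both DESeq2). Csf1r, the macrophage colony stimulating factor receptor, starts 15.5 kb after Pdgfrb on chromosome 18. It had 1848 to 2311 normalised counts in naive and 2128 to 2856 in DMM libraries, and its log2 fold change was 0.20 (DESeq2 adjusted p = 0.29). With scaling by total count it passed the adjusted p under the fold limit (0.36, DESeq2 adjusted p = 0.0294).

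Many markers of the cell types that carry PDGF receptors or ligands differed between the groups, but not every member of each list did. Across all tested genes, 7.89% were called higher and 6.07% lower. Of 11 mural markers, 9 had an adjusted p, 6 rose and none fell. The summed level of the list was 3548 to 6063 normalised counts in naive and 7643 to 9480 in DMM libraries. Abcc9 (log2 fold change 0.30), Kcnj8 (0.27) and Des (0.44) did not pass (DESeq2 adjusted p = 0.112, 0.343 and 0.331). The mural gene Rgs5 rose from 945.2 ± 312.1 to 1892 ± 292.3 (SD, n = 4 per group). Of 12 fibroblast markers, 8 rose, and the sum of the list was 125600 to 223100 in naive and 336600 to 491500 in DMM libraries. Pi16 was lower in DMM, under the fold limit (log2 fold change -0.35, DESeq2 adjusted p = 0.00944). Clec3b (0.98), Dpp4 (0.13) and Cd34 (0.28) did not pass the adjusted p. Col3a1, the collagen of loose connective tissue, rose from 16700 ± 7618 to 67660 ± 26260 (SD, n = 4 per group). Of 10 osteoblast and osteocyte markers, which share Col1a1 with the fibroblast list, 9 rose, with sums of 129800 to 220700 and 345200 to 428100. Col1a1 made up 70.5% to 88.9% of the fibroblast sum and 77.4% to 89.9% of the bone sum in a library, so both sums are largely this gene. Without it, a setting chosen after seeing the data, the fibroblast sum was 17110 to 41770 in naive and 69470 to 142000 in DMM libraries, and the bone sum 21330 to 28670 and 43860 to 78110. Of 12 chondrocyte markers, 11 had an adjusted p and 4 rose, with sums of 36040 to 65810 and 77860 to 151800. Col2a1 alone held 15100 to 36990 and 40180 to 97830 of these sums. Estimates were below 0 for Matn1 (-2.52, no adjusted p), Col9a1 (-0.36) and Matn3 (-0.29). Neither the latter 2 nor Col9a2, Hapln1, Chad and Cnmd passed the adjusted p. The part of these marker lists in the receptor and Pdgfc results was not tested.

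Sources of PDGF-B and PDGF-A were read in the same way, beside the 7.89% of all tested genes called higher and the 6.07% called lower. The neutrophil lineage, erythroid and skeletal muscle lists were read with them and are not given as sources. Of 12 endothelial markers, 7 rose, and their sum was 4917 to 5421 normalised counts in naive and 6442 to 7541 in DMM libraries, although Pecam1 had a log2 fold change of -0.03. Cdh5 rose by 0.63 on the log2 scale, and by 0.58, under the fold limit, without naive replicate 2. Of 10 megakaryocyte and platelet markers, 9 fell, and their sum was 6818 to 10520 in naive and 3505 to 4570 in DMM libraries, with Pf4 at 1596 ± 332.9 and 779.0 ± 147.9 (SD, n = 4 per group). Macrophage markers summed to 6289 to 7260 in naive and 5165 to 6580 in DMM libraries, and 1 of 10 fell. Neutrophil lineage markers (10 of 10 fell, 120600 to 181000 and 52710 to 108100) and erythroid markers (9 of 10 fell, 156200 to 305000 and 80410 to 172700) were lower in DMM, the latter with overlapping sums. Skeletal muscle markers were low, at 124.9 to 541.6 and 181.4 to 1454, and only 5 of 10 had an adjusted p. Of these, 2, Tnni2 and Myh2, were called higher. Tnni2 lost its call without DMM replicate 1 (DESeq2 adjusted p = 0.051) or naive replicate 1 (0.0543). Myh2 was at 101.2 in DMM replicate 1 and at 3.225 to 18.11 in the other DMM libraries, and its log2 fold change of 2.82 was 0.96 without that library, with no adjusted p given. It also missed the threshold without naive replicate 1 (2.53, DESeq2 adjusted p = 0.0559) and got no adjusted p without DMM replicate 2 or 3. None of the markers on these lists had a level of 0 throughout, and their part in the ligand results was not tested.

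**Figure D5:**
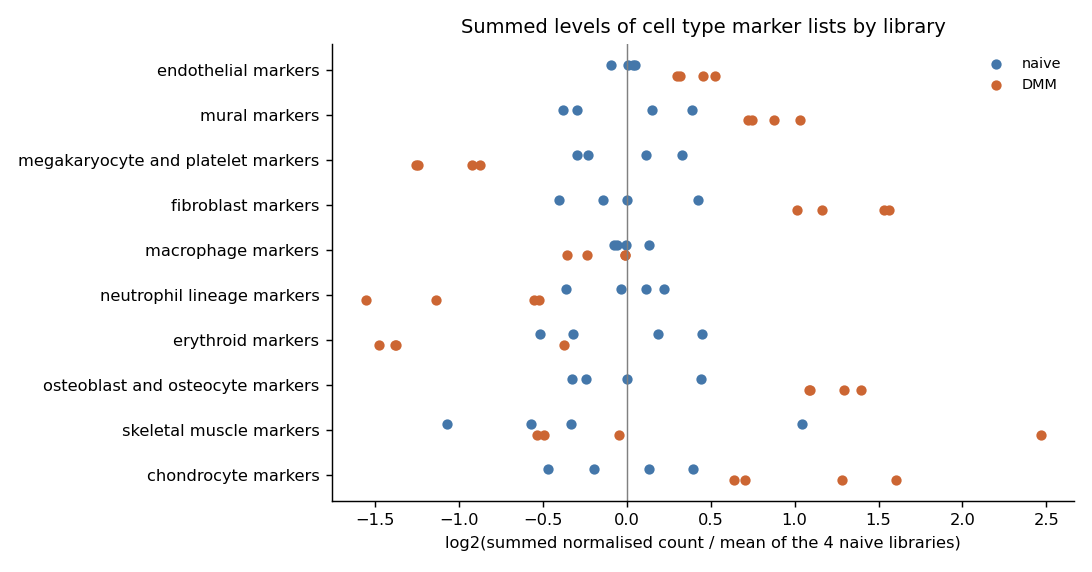
Summed normalised counts of 10 cell type marker lists in each library, as log2 of the ratio to the mean of the 4 naive libraries. Each point is a library, naive in blue and DMM in orange. Mural, fibroblast, bone, chondrocyte and endothelial sums are higher in all DMM libraries than in any naive library, platelet and neutrophil sums are lower, and macrophage, erythroid and muscle sums overlap. Col1a1 is in the fibroblast and bone lists and makes up most of both sums, and Col2a1 is the largest part of the chondrocyte sum.

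The genes whose levels followed each PDGF gene most closely were found by Pearson correlation over the 8 libraries among the 11036 genes whose mean normalised count was 100 or above. These correlations are descriptions, because all libraries share the difference between the groups, and any pair of genes that differs between them correlates. The closest 3 were also picked from 11036 genes over only 8 libraries, and such a choice gives high values by itself. They were not tested and do not show shared regulation. For Pdgfra the closest were Gpx3 (r = 0.997), Cpxm1 (0.995) and Sfxn3 (0.994), and for Pdgfrb they were Jag1 (0.994), Itpr1 (0.992) and P3h3 (0.992). For Pdgfc they were Plcb1 (0.988), Lats1 (0.984) and Pias2 (0.982), and for Pdgfa they were Nox4 (0.981), Myo1d (0.977) and Nr1d1 (0.977). Pdgfb was closest to Ubac2 (0.978), Abcf3 (0.977) and Flywch1 (0.966), and Pdgfd to Zfp90 (0.964), Gm46223 (0.903) and Rnf170 (0.897). No gene was among the closest 3 of more than 1 PDGF gene.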

How the data were processed

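Total RNA from medial knee cartilage was sequenced by the authors, who trimmed reads with Trimmomatic, pseudo-aligned them with Kallisto and summed transcripts to genes with Tximport. The deposited values are estimated counts per gene, of which 39.0% are not whole, and they were rounded here. Kallisto divides reads between transcripts, and where these belong to different genes the value of a gene need not be whole. The methods name GRCm38, whereas the submitters' processing notes name GRCh38. The labels name an NEB low input kit and the methods a SMART-Seq kit. Whether counting used strand was not stated.

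Symbols were found for 48909 of 50462 identifiers, holding 86.6% of counts, and coordinates come from GENCODE vM21 (GRCm38). DESeq2 version 1.42.0 (R version 4.3.3) was fitted to all 8 libraries without covariates (Wald test, median-of-ratios factors, default filters, Benjamini-Hochberg over all tested genes). Genes were called at an adjusted p of 0.05 or less and at least 1.5-fold. Normalised counts are estimated counts divided by the DESeq2 size factor. Ratios were tested by exact permutation over 70 assignments. Each library is a separate mouse.

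The members, gene lists and tests were chosen with earlier results of these data known. Named genes were the 6 members, the other class III receptor kinases, Pdgfrl, called genes and the 2 most abundant genes of each pathway list (1 of them is not reported here), the 3 most abundant markers per list (given only in part) and the 3 best correlated genes per member. Plat, Plau, St14, Furin, Nrp1, Matn1, Myh2 and the overlapping genes fall outside this rule and were named after their values were seen. So were the markers Pi16, Clec3b, Dpp4, Cd34, Kcnj8, Des, Col9a1, Col9a2, Hapln1, Matn3, Chad and Cnmd. Alternatives were edgeR version 4.0.16, limma-voom (limma version 3.58.1), TMM or total count scaling, other filters and fold limits, a replicate block and leaving out each library. The fits were tested on simulated data.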

Additional observations from a re-analysis of the deposited data

Results flagged for a closer look

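Single libraries that stood apart from the other 3 of their group were sought by Dixon's criterion. It picked out 12 of 134 groups of values, where chance gives about 6.7 if the groups are independent. They are not, since the summed levels contain markers also examined singly, so these numbers do not measure an excess. Among values of the PDGF family the criterion picked out 1, the log2 ratio of Pdgfa to Pdgfb in naive replicate 2. It was 0.1003 there, against 0.6055 to 0.666 in the other naive libraries. This library also had the fewest genes with at least 10 counts (16770, against 18245 to 19271 elsewhere). Without it the difference between DMM and naive in this ratio was 0.01.

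Kit, the neighbour of Pdgfra, was at 614.5 normalised counts in naive replicate 4 and at 656.0 to 659.9 in the other naive libraries. Among the markers, DMM replicate 3 stood apart for Dcn (23660 against 12860 to 13900), Hba-a2 (59690 against 26770 to 32040), Hbb-bs (47710 against 20010 to 21620), Hba-a1 (26220 against 12480 to 13830) and the summed erythroid level (172700 against 80410 to 86180). In DMM replicate 1 Myh4 (539.9 against 4.513 to 56.97), Myh1 (349.1 against 4.513 to 23.65) and the summed muscle level (1454 against 181.4 to 254.8) were high. Myh1 was also high in naive replicate 3 (71.71 against 9.313 to 14.95), and Cdh5 in DMM replicate 2 (1407 against 1276 to 1292). Without DMM replicate 3 or DMM replicate 1 all 6 PDGF estimates stayed above 0, and Pdgfra, at 0.54 and 0.57, was the only member whose call was lost.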

How the results depend on the processing

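Pdgfc, Pdgfra and Pdgfrb kept their calls with edgeR, with limma-voom, under TMM factors and total count scaling, with both filters on low counts and the replicate block. Leaving out each library gave 2 to 4 called members, 7 to 13 called pathway genes and 1855 to 2841 called genes in all. Without a fold limit 4016 genes, 4 members (with Pdgfa) and 21 pathway genes passed. Testing against a null of 1.5-fold left 94 genes, 0 members and 1 pathway gene, with DESeq2 adjusted p = 1 for Pdgfc, Pdgfra and Pdgfrb, so changes of at least 1.5-fold were not shown for them. That null asks for evidence beyond the fold limit, to which the estimates are close. Against a null of no change, 4 members passed the adjusted p.

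Scaling by total count shifted the median of all log2 fold changes (mean count 10 or above) from -0.01 to 0.14. It called 2027 genes higher and 488 lower (1369 and 1053 with median-of-ratios factors) and 4 members, with Pdgfa at 0.65 (DESeq2 adjusted p = 0.000665). Pathway genes were then 12 higher and 0 lower, and each marker list kept the direction of its called genes. All 6 members stayed above 0 in all fits. Dropping the fold limit, turning off the default filter on low counts and testing against 1.5-fold cannot move an estimate, so they add nothing here.

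Same-numbered libraries do not share an animal, and the correlations of their deviations from the group means were 0.05, 0.06, -0.12 and 0.12 over 18403 genes, so the numbers do not pair the samples. With the replicate block, 2079 genes, 3 members and 10 pathway genes were called, and no call of a member changed. The sign-flip p of the 3 ratios was 0.5, 0.25 and 0.375 (exact, two-sided, at least 0.125 with 4 pairs). Without single libraries the differences in log2 ratio ran from -0.13 to -0.03 (Pdgfra to Pdgfrb), 0.01 to 0.25 (Pdgfa to Pdgfb) and 0.17 to 0.52 (Pdgfc to Pdgfd).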
